A study of Cervus nippon with 4 samples.

Results

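The transcripts described here were highest in the muscle of juvenile sika deer. They were chosen by their FPKM in the 4 libraries and are the gene models that had an FPKM of 15 or more in the Msc_1 library and more than 2 times the FPKM of each of the Msc_2, Msc_3 and Msc_4 libraries. A gene model is a stretch of assembled sequence taken as 1 gene, and FPKM is its number of sequenced fragments scaled for its length and for the size of the library. By this rule 202 gene models were members, out of 326981 listed in at least 1 library and of 4164 at 15 FPKM or more in Msc_1. The messenger RNA came from the longissimus dorsi of Shuangyang Sika deer, 1 year (juvenile, Msc_1), 3 years (adolescence, Msc_2), 5 years (adult, Msc_3) and 10 years old (aged, Msc_4). The deer of all 4 groups were fasted before slaughter, and no other treatment was named. Each library was 1 pool of RNA from 3 deer, so the spread between deer of 1 age was not measured. No test between ages could be run, and every difference below is a difference between pools.

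The longissimus dorsi is the long muscle of the back and an important meat muscle. After birth a muscle grows mainly because its fibres become thicker and longer, while satellite cells, the stem cells of muscle, add nuclei to them. Growing muscle also builds the collagen-rich sheaths around its fibres, and the mix of myosin forms in the fibres shifts with age. Which of these processes the 202 members belong to could not be read from the data, because a gene model carries only the number of its assembly component and of its place in it, with no gene name. For the same reason no muscle marker could be looked up, and the tissue label was not checked. The members are therefore described by their abundance, their course over the ages and the gene models of the same assembly component, and most of them by their rank in Msc_1, where rank 1 is the most abundant member. Because the rule used the values of all 4 libraries, the levels are a description. In bulk muscle, fewer cells of a type and less RNA per cell cannot be told apart.

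The members held 1.57% of the summed FPKM of Msc_1, and 0.442%, 0.465% and 0.431% of that of Msc_2, Msc_3 and Msc_4. Summed over the members, FPKM was 11967 in Msc_1, and 3375, 3834 and 3396 at the later ages, which are always given in the order Msc_2, Msc_3 and Msc_4. The later libraries thus held 28.2%, 32.0% and 28.4% of the juvenile sum, with little difference among the 3 of them. The median member had 28.6 FPKM in Msc_1 and 8.24, 7.76 and 7.29 at the later ages. In Msc_1 the members ranged from 15.04 to 1216 FPKM. Of the 202, 105 lay between 15 and 30 FPKM, 51 between 30 and 60, and 46 at 60 FPKM or more. Of the 20 most abundant gene models of Msc_1, 0 were members, and so were 1 of the 100 and 42 of the 1000 most abundant. For comparison, members were 4.85% of all 4164 gene models at 15 FPKM or more in Msc_1. Only in Msc_1 did 136 members reach 15 FPKM, whereas 33 members reached it in all 4 libraries.

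The most abundant member was c668498_g2, with 1216 FPKM in Msc_1 and 442.75, 596.6 and 404 at the later ages. It alone held 10.2% of the members' juvenile FPKM. Its juvenile level was 2.04 times that of Msc_3, the highest later library, so that it lay just inside the 2-fold limit of the rule. The second, c668892_g1, had 518 FPKM in Msc_1 and 51.7, 215 and 191 at the later ages. It was 10.0-fold lower in Msc_2 than in Msc_1, and the adult and aged libraries lay between these levels. The member of rank 3 had 479 FPKM in Msc_1 and 161, 182 and 173 in the later libraries, and its 3 later values were close to each other. Rank 4 had 425, 82.8, 123 and 115 FPKM from Msc_1 to Msc_4, and rank 5 had 340, 87.9, 121 and 118. In both of them Msc_2 was the lowest library. Rank 6 had 297, 132, 138 and 123 FPKM, and rank 7 had 280, 119.9, 99.1 and 135. Both stayed above 90 FPKM at every age. The member of rank 8 had 264, 53.8, 31.1 and 26.1 FPKM, and was lower at each later age. Rank 9 had 249, 45.8, 53.8 and 62.9 FPKM, an order opposite to that of rank 8 among the later ages. Rank 10 had 212, 94.7, 93.1 and 91.0 FPKM, nearly level after Msc_1. The 10 most abundant members together held 35.8% of the juvenile FPKM of all 202.

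**Figure D1:**
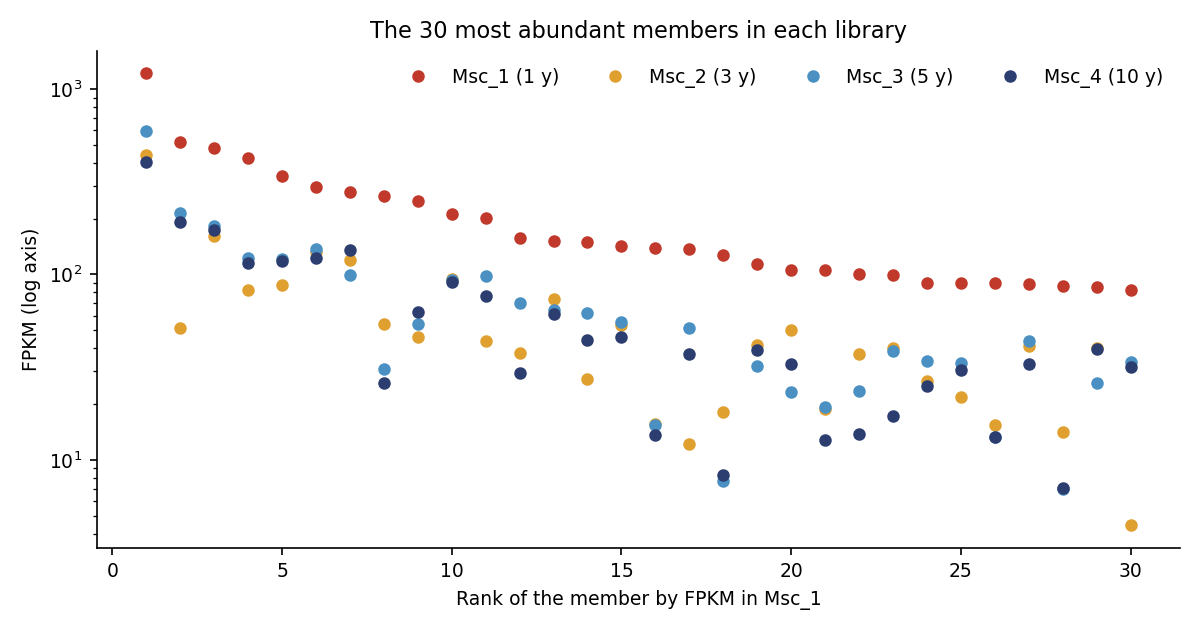
FPKM on a log axis (vertical) of the 30 most abundant members, in order of their rank in Msc_1 (horizontal), with 1 point for each of the 4 libraries. The juvenile points run from 1216 down to 82.7 FPKM, the 3 later points of a member often lie close together, and Msc_2 stands lowest for members such as those of rank 2, 17 and 30.

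For the 201 members listed in at least 1 later library, the juvenile level was a median of 2.68 times that of the highest later library. The middle 50% of these ratios ran from 2.28 to 3.83. A ratio of 2 to 3 was found in 122 members, 3 to 4 in 33, 4 to 8 in 32 and above 8 in 14. The largest was 34.98, in the member of rank 172, which had 17.8 FPKM in Msc_1 and 0.51, 0.32 and 0.43 in the later libraries. Rank 92 was close to it at 34.3, with 31.9 FPKM in Msc_1 and 0.93, 0.5 and 0.26 later. Both were below 1 FPKM at every later age. The next largest ratio was 19.3, in the member of rank 54, with 50.4, 2.08, 1.27 and 2.61 FPKM from Msc_1 to Msc_4. Among the 20 most abundant members the widest gap was in rank 16, with 138 FPKM in Msc_1 and 15.6, 15.4 and 13.6 later, a ratio of 8.89. It was followed by rank 18, with 127.9 FPKM in Msc_1 and 18.1, 7.7 and 8.26 later, a ratio of 7.09.

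The limits of the rule cut through a continuous range of values. The members closest to the floor had 15.04, 15.21 and 15.36 FPKM in Msc_1, and gene models with 14.98, 14.97 and 14.96 FPKM were left out although each was more than 2-fold above every later library. At the fold limit the members with the smallest ratios stood at 2.002, 2.007 and 2.007, and the closest gene models left out at 1.998, 1.996 and 1.991. Between 1.8-fold and 2-fold there were 45 gene models, and 39 members lay at or below 2.2-fold.

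A short gene model can reach a high FPKM with few fragments. Among gene models listed in Msc_1 only, the highest value that at least 20 of them shared was 3.87 FPKM, found in 53 gene models, and it is read here as 1 fragment on a gene model of the shortest kind. The corresponding value was 3.77 FPKM in Msc_2, 5.2 in Msc_3 and 5.41 in Msc_4. In Msc_1 the floor of 15 FPKM was 3.88 times this value. Below 10 times this value, 38.7 FPKM, lay 129 members, and the number of fragments behind each is unknown because no lengths were at hand. The member c1000897_g1 had 15.48 FPKM in Msc_1, exactly 4 times 3.87, was not listed in Msc_2 and Msc_3, and had 5.41 FPKM in Msc_4, exactly the value read as 1 fragment. On this reading its difference between libraries rests on very few fragments. In all, 13 members were not listed in at least 1 later library, and 189 were listed in all 4.

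Of the 13 members missing from a later library, 1 was missing from all 3 of them. This member, of rank 189, had 16.4 FPKM in Msc_1. The most abundant of the 13, of rank 32, stood at 78.9 FPKM in the juvenile library, 1.92 in the adolescent and 5.13 in the aged one, and was missing from Msc_3. The member c329064_g1 stood at 45.0 FPKM in the juvenile library, 2.35 in the adult and 4.85 in the aged one, and was missing from Msc_2. Of all 202 members, 183 had 1 FPKM or more in every library.

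The juvenile library was set beside the other 3 by applying the same floor and fold to each of them in turn. In Msc_1, 202 of 4164 gene models at 15 FPKM or more were past the limits, or 4.85%. The counts were 45 of 3974 (1.13%) for Msc_2, 59 of 4339 (1.36%) for Msc_3 and 70 of 4176 (1.68%) for Msc_4. The juvenile library thus had 2.89 times as many such gene models as the next, Msc_4. At 60 FPKM or more there were 46 in Msc_1 against 11, 4 and 5 in the others. The ratio to the highest other library did not set Msc_1 apart, since its median of 2.68 lay between those of the later libraries, 3.15, 2.45 and 2.63 in order of age. In the opposite direction, 120 of 3283 gene models at 15 FPKM or more in each later library (3.66%) were more than 2-fold lower in Msc_1 than in each of them, and such gene models numbered 29 (0.898%), 17 (0.538%) and 23 (0.723%) for Msc_2, Msc_3 and Msc_4. With 1 pool per age, a pool that differs from the others cannot be told apart from an age that does.

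**Figure D2:**
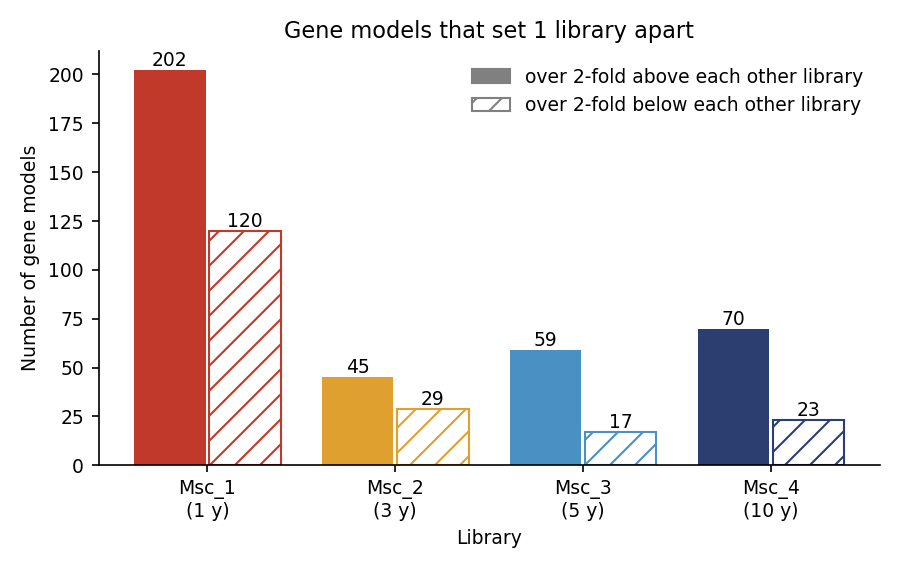
Number of gene models (vertical) more than 2-fold above each other library at 15 FPKM or more (filled bars) and more than 2-fold below each other library, all of these at 15 FPKM or more (hatched bars), for each library (horizontal). The filled bar of Msc_1 stands at 202, against 45, 59 and 70, and its hatched bar at 120, against 29, 17 and 23.

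Taken singly, each later library was exceeded more than 2-fold by a larger number of juvenile transcripts. Of the 4164 gene models at 15 FPKM or more in Msc_1, 432 (10.4%) were past this limit over Msc_2, 369 (8.86%) over Msc_3 and 439 (10.5%) over Msc_4. The 202 members are those past it over all 3, while 170 gene models were past it over 2 of them and 294 over 1. Among gene models of 0.3 to 1.2 FPKM, the most common ratio between 2 libraries was shared by 18.7% of the gene models for Msc_1 with Msc_2 and by 20.5% for Msc_3 with Msc_4, against 7.53% to 8.74% for the other 4 combinations. The comparisons of Msc_2 with Msc_3 and with Msc_4 made below are among these other combinations. The part of this pattern in the members' differences, also in those among the later libraries, was not tested. The median member was 3.37-fold higher in Msc_1 than in Msc_2 (194 members listed in both), 3.26-fold higher than in Msc_3 (196 members) and 3.67-fold higher than in Msc_4 (196 members). Over all 4164 gene models, the median log2 ratio of Msc_1 on the log2(FPKM + 0.1) scale was 0.17 over Msc_2, 0.06 over Msc_3 and 0.12 over Msc_4, and that of the members was 1.8, 1.70 and 1.89. The floor on Msc_1 itself raises these medians, and over the 5544 gene models at 15 FPKM or more in any library they were 0.06, -0.08 and -0.03.

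**Figure D3:**
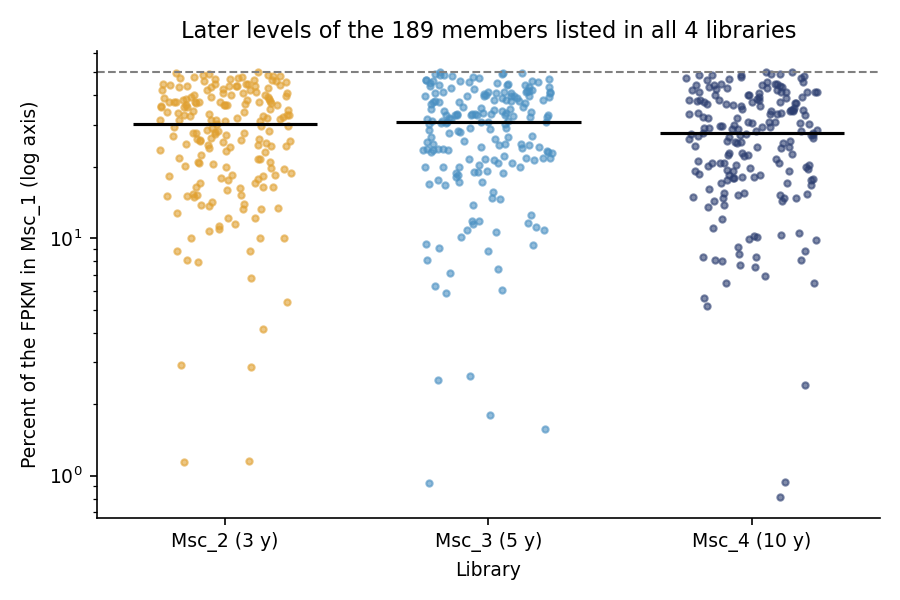
FPKM in each later library as a percentage of the FPKM in Msc_1 (vertical, log axis) for the 189 members listed in all 4 libraries, 1 point each, with the median as a black line. The dashed line marks the upper limit that the rule sets, and the medians stand at 30.3% in Msc_2, 30.8% in Msc_3 and 27.6% in Msc_4.

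After the juvenile age most members stayed at a similar level. In the 189 members listed in all 4 libraries, the highest of the 3 later values was a median of 1.53 times the lowest, and in 137 of them (72.5%) the later values lay within 2-fold of each other. In 163 of the 189, the ratio of Msc_1 to the highest later library was larger than this ratio among the later libraries. The rule fixes this for the 137, since it sets the ratio of Msc_1 above 2. The low level of the members did not set them far from other transcripts in this respect. Of the members with a mean of 5 to 20 FPKM over the later libraries, 114 in all, 113 were listed in each of them, and 79.6% of these lay within 2-fold. Of 8235 gene models of the same mean that were no members, 8144 were listed in each, and 76.5% of these lay within 2-fold. Across the 189 members, the Pearson correlation of log2 FPKM was 0.87 between Msc_2 and Msc_3, 0.84 between Msc_2 and Msc_4 and 0.84 between Msc_3 and Msc_4. Between Msc_1 and the later libraries it was 0.79, 0.80 and 0.79. Over the 4140 gene models at 15 FPKM or more in Msc_1 and listed in all libraries, it was 0.93, 0.95 and 0.95 among the later libraries. With Msc_1 it was 0.91, 0.90 and 0.89 there. These gene models were chosen by a floor on Msc_1 alone, so Msc_1 and the later libraries are not on equal terms. The correlations of the members are across gene models that the rule chose on the same values, and gene models are not replicates.

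The rule did not fix the order of the later libraries, but it held each of them more than 2-fold below Msc_1. The gene models set beside the members here were chosen without this limit. How far the rule shaped the shares below was not tested. Msc_2 was the highest later library for 78 members (38.6%), Msc_3 for 73 (36.1%) and Msc_4 for 50 (24.8%), against 32.5%, 41.1% and 26.3% of all gene models at 15 FPKM or more in Msc_1. The lowest later library was Msc_4 for 81 members (40.1%), against 28.2% of all. Msc_2 was the lowest for 57 members (28.2%), against 42.4% of all. A lower level at each age than at the one before it was found in 42 members (20.8%), and the same order of the later 3 in 15.3% of all. In 10 of these 42 members, 4.95% of the 202, both later steps were larger than 1.2-fold, against 2.23% of all. The gene models counted here as all were not matched to the members in their level at the later ages. At a matched level the share past 1.2-fold was not counted. The most abundant of the 10, of rank 22, had 101 FPKM in Msc_1 and 37.2, 23.6 and 13.8 at the later ages. The next, of rank 35, had 78.1, 23.2, 15.6 and 12.5 FPKM.

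Differences between 2 later libraries were counted where log2(FPKM + 0.1) differed by more than 1. On this scale the differences of gene models with low FPKM come out too small. From Msc_2 to Msc_3, 23 members (11.4%) were higher and 18 (8.91%) lower by this limit. Among all gene models at 15 FPKM or more in Msc_1, 8.41% were higher and 2.69% lower, and among the 8235 non-members with a mean of 5 to 20 FPKM over the later libraries, 12.0% and 3.52%. From Msc_3 to Msc_4, 12 members (5.94%) were higher and 19 (9.41%) lower. The corresponding shares were 1.97% and 3.75% of the gene models at 15 FPKM or more in Msc_1, and 4.48% and 5.97% of the non-members. From Msc_2 to Msc_4, 18 members (8.91%) were higher and 22 (10.9%) lower. Of the gene models at 15 FPKM or more in Msc_1, 3.67% were higher and 3.39% lower, and of the non-members 8.22% and 4.2%. The 202 members include ones that were lower than this range of the non-members or not listed at a later age. Among the 114 members with a mean of 5 to 20 FPKM over the later libraries, the range of the non-members, 5.26% were higher and 5.26% lower from Msc_2 to Msc_3, 2.63% and 7.89% from Msc_3 to Msc_4, and 5.26% and 8.77% from Msc_2 to Msc_4. In this range, and without scaling, a smaller share of members than of non-members was higher and a larger share lower in each comparison, on counts of 3 to 10 members, with no test. The rule held the later values of the members more than 2-fold below Msc_1, and the non-members were chosen without this limit. Its part in the contrast was not tested. The median log2 difference of the 202 members was -0.01, -0.09 and -0.09 in these 3 comparisons, against 0.07, -0.06 and 0.05 for the gene models at 15 FPKM or more in Msc_1 and 0.10, -0.04 and 0.07 for the non-members. The comparisons share libraries, and the balance of higher and lower members from Msc_2 to Msc_3 moved with scaling, from 56.1% higher to 40.0% under upper-quartile scaling.

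The 18 members that were higher in Msc_4 than in Msc_2 by this limit were chosen for that difference, and their levels are a description. Their median was 42.4 FPKM in Msc_1 and 2.2, 6.81 and 6.995 at the later ages. In 16 of the 18, Msc_2 was below both Msc_3 and Msc_4. The exceptions were rank 32, which was not listed in Msc_3, and c1000897_g1, which was listed in neither Msc_2 nor Msc_3. The largest such differences were those of c1000897_g1 and c329064_g1, whose log2 differences from Msc_2 to Msc_4 were 5.78 and 5.63. Neither was listed in Msc_2, and the size of the difference depends on the 0.1 FPKM added. Of abundant members in this group, that of rank 17 had 136.9 FPKM in Msc_1 and 12.1, 51.7 and 37.1 at the later ages. The member of rank 36 had 77.2, 12.6, 22.1 and 35.2 FPKM. The second most abundant member, c668892_g1, also belonged to this group. The 22 members lower in Msc_4 than in Msc_2 had a median of 40.1 FPKM in Msc_1 and 11.9, 7.53 and 4.52 at the later ages. The 162 others had medians of 25.2, 8.38, 8.26 and 7.66 FPKM, nearly level after Msc_1.

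**Figure D4:**
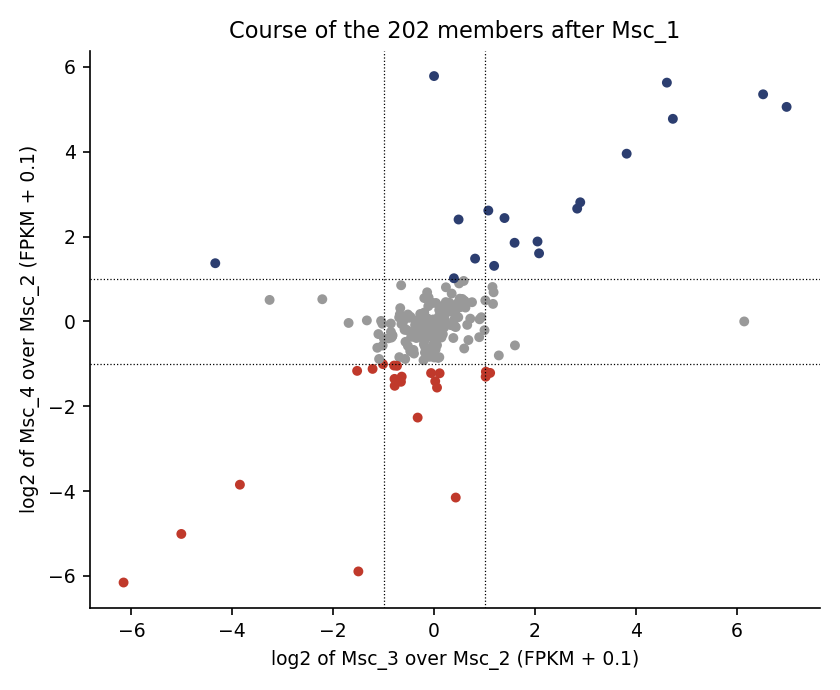
Log2 difference of each of the 202 members from Msc_2 to Msc_3 (horizontal) and from Msc_2 to Msc_4 (vertical), on FPKM + 0.1, with dotted lines at a log2 difference of 1 in either direction. Most points lie near the centre, 18 members (dark blue) lie above the upper line and 22 (red) below the lower line, and the points farthest out belong mainly to members not listed in a library.

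Gene models whose identifiers share the number before the gene number are taken here to be of the same assembly component, a reading of the identifiers, since the assembler is not named. In assemblies of this kind such gene models can be near-identical sequences among which reads are shared out. The 202 members came from 190 components. Of these, 8 held 2 members and 2 held 3, so that 22 members shared their component with another. One of the components with 3 members held ranks 14, 17 and 30. They had 151, 136.9 and 82.7 FPKM in the juvenile library and 27.4, 12.1 and 4.44 in the adolescent one. In the adult library they had 62.3, 51.7 and 33.7 FPKM, and in the aged one 44.3, 37.1 and 31.7. All 3 had the same order of libraries, lowest in Msc_2. The other held ranks 48, 53 and 103, with 55.95, 51.1 and 28.4 FPKM in Msc_1. In Msc_2 the first and the last of them were not listed and the other had 0.59 FPKM. In Msc_3 they had 12.6, 4.83 and 2.56 FPKM, and in Msc_4 3.23, 4.26 and 2.64. Members of the same component may be parts of the same gene and are not independent of each other.

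The components also held 361 gene models that were no members, here called sisters, of which 97 had 1 FPKM or more in at least 1 library. They are the gene models of these components that were not past the limits, so the rule used their values only to leave them out. Of the 97, 55 (56.7%) were highest in Msc_1. Among 17146 gene models of the same minimum that shared a component without members, 27.0% were highest in Msc_1. More than 2-fold above each later library were 24 of the sisters (24.7%), against 5.01% of the others, and these 24 were by the rule below 15 FPKM in Msc_1. Lowest in Msc_1 were 13 sisters (13.4%), against 24.3% of the others. Of the 18 sisters at 15 FPKM or more in a library, 6 (33.3%) were highest in Msc_1, against 25.6%, and 7 (38.9%) were lowest there, against 30.6%. At this level a gene model more than 2-fold above each later library would be a member, so that such gene models are missing from the 18 by construction. Sisters can share reads with the members, and the part of this in the counts was not tested.

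**Figure D5:**
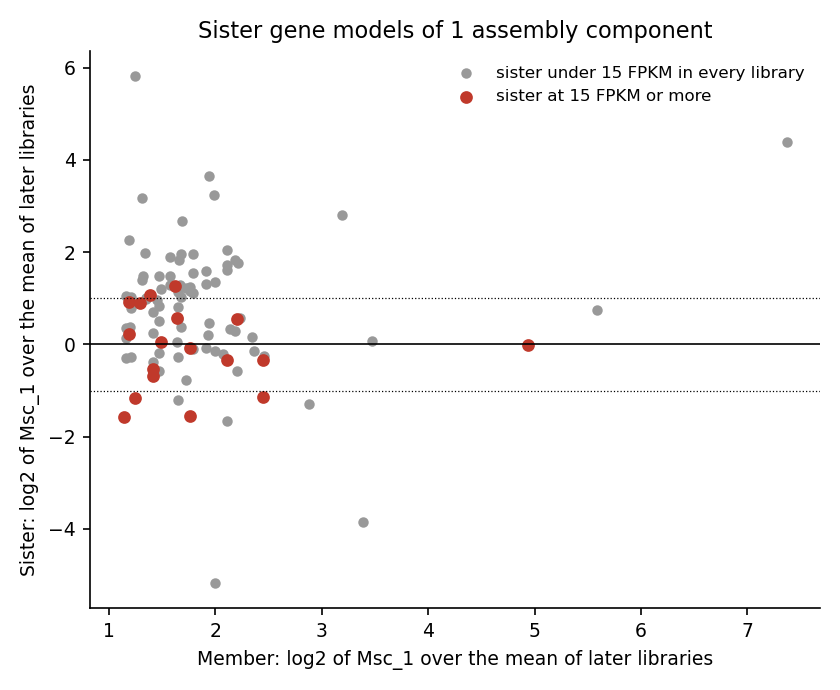
Log2 ratio of Msc_1 over the mean of the 3 later libraries, on FPKM + 0.1, for a member (horizontal) and its sister gene model (vertical). Where a component held several members, the most abundant was used. Of the 97 sisters 68 lie above 0 and 29 below, and of the 18 sisters at 15 FPKM or more (red) 8 lie above 0.

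In some components an abundant sister ran against the member. The abundant sister of the rank 7 member had 488 FPKM in Msc_1 and 668, 966 and 1620 at the later ages. It was higher at each later age, while the member was highest in Msc_1. A further sister in that component had 5.55 FPKM in Msc_1 and was not listed later. One sister of c668892_g1 had 27.1 FPKM in Msc_1 and 41.7, 119 and 78.95 at the later ages, lowest in the juvenile library. The 2 abundant sisters of the rank 58 member were lowest in Msc_1, the first with 84.2 FPKM there and 122, 133 and 110 later, the second with 51.3 FPKM and 81.3, 92.95 and 73.8 later. Other abundant sisters followed the member. The abundant sister of the rank 76 member had 972 FPKM in Msc_1 and 453, 574 and 542 later, and that of the rank 142 member had 1453 FPKM and 885, 1144 and 935 later. Both were highest in Msc_1, with a ratio to the highest later library below 2.

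When FPKM was summed over each component before the rule was applied, 187 components were past the limits. Among them were 168 (88.4%) of the 190 components of the members. For 118 of the 190, which held 1 member and no sister at 1 FPKM or more, the sum was nearly the member itself, and 116 of them were past the limits by the choice of the member. Of the other 72, 52 (72.2%) were past the limits, and of the 68 with a sister at 1 FPKM or more, 48 (70.6%). These shares too are partly fixed by the choice of the members. A sum over several members alone is past the limits by the rule, and some sisters added little to the sum. The sister of c668498_g2, for example, had 2.12 FPKM in Msc_1. Components with a sister at 15 FPKM or more were not counted apart. Of the 22 components that were no longer past the limits, 18 were still highest in Msc_1 and 4 were not. Among the 4, the component of the rank 7 member summed to 774 FPKM in Msc_1 and to 789, 1067 and 1757 later. The component of c668892_g1 summed to 559.8, 99.9, 342 and 301 FPKM and was 1.64-fold above Msc_3.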

How the data were processed

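The authors pooled RNA of 3 deer for each age, sequenced 4 libraries on a HiSeq2500, and deposited FPKM values per gene model, scaled for length and library and rounded to 2 decimals. Bowtie 0.12.2 is named in the submitters' processing notes without a role. Neither the assembler nor the program that counted fragments is named in the sources read, and lengths are likewise not given there. No counts were used, so the depth behind a value is unknown.

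The 4 tables were joined on the identifier in Python 3.11.15 (numpy 2.4.6, pandas 2.3.3, figures with matplotlib 3.10.9), a value not listed was set to 0, and no scaling was applied. The members, lists and limits were chosen with earlier results of these data known. With 1 library per age no test was run. The code was tested on simulated data. The identifiers printed are the 2 members highest in Msc_1 and the 2 with the largest rise of log2(FPKM + 0.1) from Msc_2 to Msc_4; other members are given by rank. The range of 5 to 20 FPKM for the non-members was chosen after the values were seen. Alternatives were 3 scalings, other floors, folds and pseudocounts, other minimum levels of sisters, and sums over components. The restriction to gene models listed in all 4 libraries was added after the values were seen.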

Additional observations from a re-analysis of the deposited data

How the results depend on the processing

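No paired analysis was possible because no age had more than 1 library, and for the same reason no replicate could be left out. Scaling, a pseudocount of 1 FPKM and the restriction to gene models listed in all 4 libraries kept the number of members between 186 and 215, within 1.5 times the 202 reported, and a floor of 10 FPKM gave 303. The 3 scalings kept 190, 192 and 192 of the 202 members. Upper-quartile scaling shifted Msc_4 against Msc_1 by 0.10 on the log2 scale. Msc_1 held the largest number of gene models of the 4 libraries under every setting, from 1.3 times the next with a 1.5-fold limit to 4.18 times with a floor of 60 FPKM.

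The numbers follow the limits by construction. With a floor of 30 FPKM they were 97 in Msc_1 and 27, 17 and 16 in Msc_2, Msc_3 and Msc_4, and with 60 FPKM 46, 11, 4 and 5. A floor of 10 FPKM gave 83, 145 and 149 in the later libraries. A limit of 1.5-fold gave 374, 118, 287 and 191, of 3-fold 80, 23, 15 and 28, and of 4-fold 47, 19, 8 and 17. Past 1.5-fold, 75 members differed from Msc_2 to Msc_3 (37 higher, 38 lower) and 66 from Msc_3 to Msc_4 (28 higher, 38 lower). From Msc_2 to Msc_4 68 differed (26 higher, 42 lower). The share of all gene models past 1.5-fold was not counted. Counted at 5 FPKM or more, 24 of 41 sisters were highest in Msc_1, and at 0.3 FPKM or more 80 of 186 (43.0%). For these 2 minimum levels no share was counted in components without members. Members at 60 FPKM or more held 1.02% of the FPKM of Msc_1.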
